A study of Homo sapiens with 4 samples.

Results

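NF-kappaB transcription factors are dimers of 5 related subunits, and 10 of the 29833 genes in the table of Reh-6-MPR cells are described here: those 5 subunits, NFKB1, NFKB2, RELA, RELB and REL, the 3 inhibitors NFKBIA, NFKBIE and TNFAIP3, and the 2 target genes BIRC3 and TRAF1. They were chosen by gene symbol, and 1 row matched each of the 10. Reh is an established human line of B-cell precursor acute lymphoblastic leukemia. Reh-6-MPR is a 6-mercaptopurine (6-MP) resistant line that the study derived from Reh by rising exposure to 6-MP, a thiopurine antimetabolite of leukemia maintenance therapy, and kept in medium without the drug before use. The untreated group received PBS (vehicle), the others received 4 mM histidine, 1.0 μg/mL 6-MP, or 4 mM histidine with 1.0 μg/mL 6-MP (the combined treatment), all for 48 h in the same wild-type, 6-MP resistant background. Messenger RNA was sequenced in 4 libraries, 1 per treatment, without a library of the parental Reh line here, to find genes that respond to histidine and 6-MP.

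In resting lymphoid cells most NF-kappaB dimers are held in the cytoplasm by IkappaB proteins. In the canonical route, the IKK kinase complex marks IkappaB for destruction and releases dimers of RELA or REL with p50, the processed product of NFKB1. In the non-canonical route, which receptors such as CD40 and BAFF-R feed in B-lineage cells, the kinase NIK and IKKalpha promote processing of the NFKB2 product p100 to p52, the partner of RELB. Both routes switch on genes that restrain or sustain them, so that NFKB1, NFKB2, RELB, REL, NFKBIA, NFKBIE, TNFAIP3, BIRC3 and TRAF1 are themselves known targets of the pathway.

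With the combined treatment, the transcripts of the 2 subunits of the non-canonical route were higher than in each of the other libraries, and those of NFKB1 and of 2 inhibitors were lower. RELB was 2.55-fold and NFKB2 1.82-fold the vehicle level, whereas NFKBIA was at 72.5%, NFKB1 at 81.1% and TNFAIP3 at 81.9% of it. REL, TRAF1 and BIRC3 were also highest with the combined treatment, at 1.25-fold, 1.49-fold and 3.59-fold vehicle, BIRC3 from 13 reads in vehicle. RELA and NFKBIE were at 96.5% and 101%, within counting error of vehicle. Such differences were common: in the count described below, 30.2% of genes lay above the median gene against vehicle and 30.9% below it. Histidine or 6-MP alone moved no member with a mean level of at least 1 by more than 0.16 on the log2 scale defined below.

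Matches to the kappaB consensus in the start regions of these genes are shown because several of them are known to be controlled by NF-kappaB through such sites. RefSeq promoter windows on GRCh38.p14, from 250 bases before to 50 bases after an annotated start, held entries for 8 of the 10 genes, in 14 windows, and RELB and NFKBIE had no entry. Both strands were searched for the 10-letter kappaB consensus. At least 1 match lay in a window of 6 of the 8 genes (75%), NFKB1, NFKB2, REL, NFKBIA, TNFAIP3 and BIRC3. The share was 13.3% of all 27305 genes with a RefSeq promoter window, measured here or not, and 17.0% of the 8558 tested genes with an entry. The 8 genes had 1.75 windows each on average and all genes 1.29. By window, 7 of the 14 held a match, against 11.3% of all 35116 windows. Most of these genes are known NF-kappaB targets, so the share is no independent finding. Capitals mark the match, or 2 overlapping or neighbouring matches, and each stretch is read on the strand of its gene. Of the stretches found, 2 more of NFKB2 and 1 more of BIRC3 are not shown.
NFKB1, chr4:102501300-102501329, plus strand: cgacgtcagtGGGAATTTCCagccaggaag
NFKB2, chr10:102394462-102394490, plus strand: aaacgtcatGGGAATTCCCCcctccgggg
NFKB2, chr10:102395674-102395703, plus strand: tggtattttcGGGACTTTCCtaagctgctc
REL, chr2:60881518-60881546, plus strand: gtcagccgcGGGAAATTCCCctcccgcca
NFKBIA, chr14:35404811-35404840, minus strand: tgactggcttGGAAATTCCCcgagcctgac
TNFAIP3, chr6:137867188-137867217, plus strand: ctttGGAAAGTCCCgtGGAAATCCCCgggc
BIRC3, chr11:102317275-102317304, plus strand: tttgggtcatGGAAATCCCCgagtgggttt
The match of NFKB1 began 49 bases before the start, that of NFKBIA 81 bases before it, and the second NFKB2 stretch belonged to another annotated start of the gene, 21 bases before it. No match was found in these windows of RELA and TRAF1. Matches were thus present in genes whose read-ratio interval against vehicle, described below, lay above the median gene (NFKB2, BIRC3), below it (NFKB1, NFKBIA, TNFAIP3) or took it in (REL).

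Levels are FPKM, sequenced fragments scaled to transcript length and library size, as deposited. FPKM values fell on steps of 1 read, which gave back whole reads for all 10 genes on library totals of 12899122 reads (combined treatment) to 15486376 reads (histidine). Intervals are exact 95% intervals of those reads (Poisson for a level, Clopper-Pearson for a ratio). They cover counting error only and compare libraries, not treatments, since no treatment was repeated and PCR copies are not independent molecules. For the same reason no p-value is given. A log2 fold change is the difference of log2(FPKM + 1), which understates changes of low genes, and a gene was past the fold threshold where it was at least 1 in size. A gene counted as tested where its FPKM averaged 1 or more across the libraries. These were 12750 genes, including 9 of the 10 members, and BIRC3 was below the minimum. The combined library gave reads for 25443 genes, the other 3 for 23635 to 23978, and its median tested gene lay 0.13 above vehicle, 0.13 above 6-MP and 0.11 above histidine on this scale. The B-lymphoid precursor identity of the line showed in all 4 libraries. All 11 of 12 marker genes with a row had a mean FPKM of at least 1 and summed to 1356 to 1417 FPKM. T-cell markers had 1 of 6 with a row, none at a mean FPKM of 1, and summed to at most 0.103. Of 8 monocyte and granulocyte markers 5 had a row and MPO alone reached a mean of 1. That list summed to 27.0 to 31.2 FPKM in 3 libraries and 43.7 with the combined treatment. Of 6 erythroid and stromal markers 3 had a row, COL1A1 alone reached a mean of 1, and the sum was 0.869 to 1.11 FPKM in 3 libraries and 2.04 with the combined treatment. No marker with a row was at 0 in all libraries. The part of these differences in the results below was not tested, and in bulk RNA fewer cells of a type and less RNA per cell cannot be told apart.

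In vehicle, the members spanned from among the highest to among the lowest expressed genes. TNFAIP3, which encodes the ubiquitin-editing enzyme A20 that shuts down signaling upstream of IKK, led with 89.8 FPKM and ranked above 97.1% of the tested genes. NFKBIA, encoding IkappaBalpha, followed at 39.0 FPKM, above 92.0% of them. The subunits RELA, NFKB1 and NFKB2 lay at 18.5, 12.1 and 9.72 FPKM, and NFKBIE, encoding IkappaBepsilon, at 7.90 FPKM. The lower end held REL, at 2.32, RELB, at 1.74, and TRAF1, at 1.58 FPKM. BIRC3 was last at 0.121 FPKM, from 13 reads. Counting intervals of neighbours in this order overlapped for REL with RELB and for RELB with TRAF1. With the combined treatment NFKB2 moved up beside RELA, and RELB moved above REL. The plot of levels by gene and library shows this order on a log axis.

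**Figure D1:**
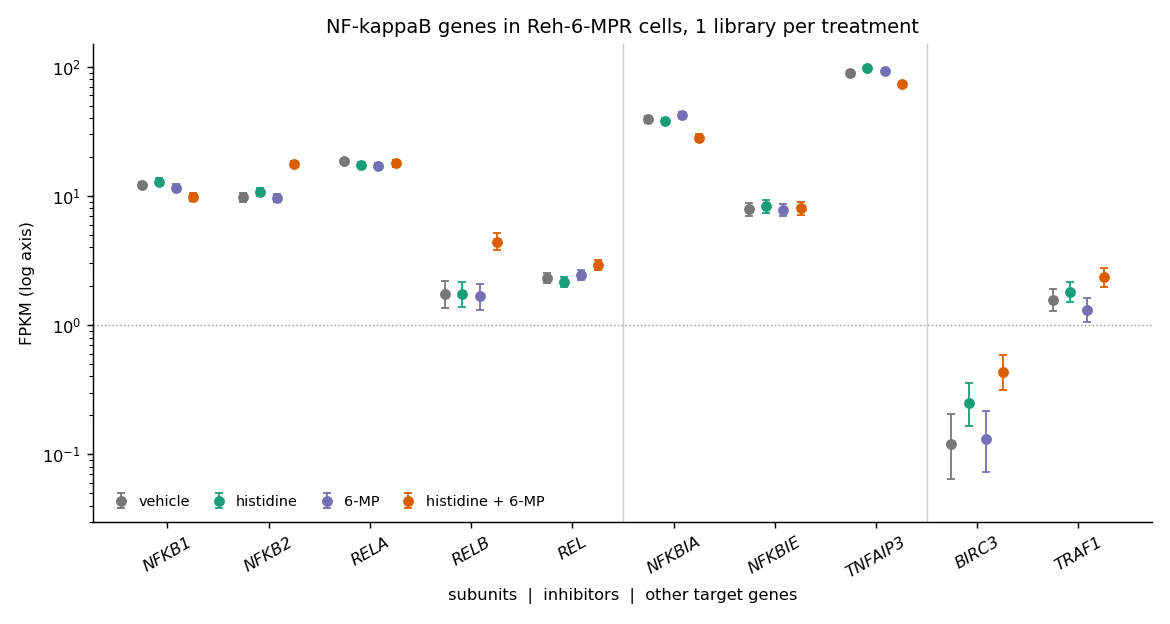
Levels of the 10 NF-kappaB genes in FPKM (vertical log axis) in each of the 4 libraries, grouped into subunits, inhibitors and other target genes; points are single libraries, bars their exact 95% Poisson counting intervals, and the dotted line an FPKM of 1. The combined library lies apart from the other 3 above them for NFKB2 (17.7 FPKM) and RELB (4.42 FPKM) and below them for NFKB1, NFKBIA and TNFAIP3.

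RELB, the subunit that pairs with p52 and is the effector of the non-canonical route, was at 1.74 FPKM in vehicle (75 reads), 1.73 with histidine (81 reads), 1.66 with 6-MP (77 reads) and 4.42 with the combined treatment (172 reads). The first 3 libraries were alike, with intervals reaching from 1.31 to 2.18 FPKM, and the interval of the combined library, 3.79 to 5.13, lay wholly above them. Per library read, the combined library held 2.55 times as many RELB reads as vehicle (interval 1.93 to 3.38), 2.66 times as many as 6-MP (2.02 to 3.52) and 2.55 times as many as histidine (1.95 to 3.36). The log2 fold changes were 0.99, 1.02 and 0.99 in the same order. RELB was therefore past the threshold against 6-MP only, by a margin of 0.02, although its 3 fold changes differed by less than their counting error. With a pseudocount of 0.1 or with TPM scaling RELB was past the threshold in all 3 comparisons. So were 10.0% to 11.9% of tested genes with that pseudocount and 15.7% to 17.3% with TPM scaling. The TPM setting applied the minimum of 1 to TPM values, which made 17949 genes tested there. With median-ratio scaling RELB was past the threshold in none of the 3.

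NFKB2, the precursor p100 and source of p52, was at 9.72 FPKM in vehicle (656 reads), 10.7 with histidine (778 reads), 9.60 with 6-MP (694 reads) and 17.7 with the combined treatment (1075 reads). Its combined level was again above all others, and the interval of 16.6 to 18.8 FPKM left a gap to the highest other bound, 11.4. The read ratio was 1.82 against vehicle (1.65 to 2.01), 1.84 against 6-MP (1.67 to 2.03) and 1.66 against histidine (1.51 to 1.82). The log2 fold changes were 0.80, 0.82 and 0.68, short of the threshold.

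NFKB1, the precursor p105 of the canonical subunit p50, went the other way. Its level was 12.1 FPKM in vehicle (1104 reads), 12.9 with histidine (1272 reads), 11.6 with 6-MP (1128 reads) and 9.84 with the combined treatment (807 reads). The combined library was lowest, with an upper bound of 10.5 FPKM below the lowest bound of the others, 10.9. The combined library held 81.1% of the vehicle reads per library read (74.0% to 88.9%), 85.1% of the 6-MP reads (77.6% to 93.2%) and 76.2% of the histidine reads (69.7% to 83.3%).

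RELA, the transactivating p65 subunit, was nearly level at 18.5, 17.4, 17.2 and 17.8 FPKM in vehicle, histidine, 6-MP and combined treatment (1439 to 1467 reads in the first 3, 1256 in the last). All 4 intervals overlapped, between 16.3 and 19.5 FPKM. The read ratio of combined treatment to vehicle was 0.965 (0.894 to 1.04). REL, the c-Rel subunit of lymphoid cells, was at 2.32, 2.15, 2.43 and 2.90 FPKM in the same order. It was highest with the combined treatment, and its interval there, 2.65 to 3.16 FPKM, touched that of 6-MP, which reached 2.65. Against vehicle the REL read ratio was 1.25 (1.10 to 1.42), an interval that took in the median gene of the comparison below. REL shares 5702 exon bases on the same strand with the noncoding AC010733.2 in GENCODE 29, so reads of the pair could have been split between them.

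The proportions of the subunit transcripts differed with the combined treatment. Summed over the 5 genes, the level was 44.4 FPKM in vehicle, 44.8 in histidine, 42.4 in 6-MP and 52.7 in the combined library. NFKB2 supplied 21.9% of this sum in vehicle and 33.6% with the combined treatment, and RELB 3.91% and 8.39%. NFKB1 supplied 27.3% and 18.7%, and RELA 41.7% and 33.9%. REL stayed near its share, 5.22% and 5.50%. Ratios within a library do not depend on its scaling. The NFKB2 to NFKB1 ratio of FPKM was 0.802 in vehicle, 0.825 in histidine, 0.830 in 6-MP and 1.80 in the combined library (1.64 to 1.97), so NFKB1 was the higher of the pair in 3 libraries and NFKB2 in the fourth. The RELB to RELA ratio was 0.0939, 0.0999, 0.0969 and 0.248 (0.210 to 0.291) in the same order. NFKB2 relative to RELA was 0.526, 0.614, 0.558 and 0.991. For the non-canonical pair, the RELB to NFKB2 ratio was 0.179 (0.139 to 0.227) in vehicle and 0.163 (0.128 to 0.205) in histidine. It was 0.173 (0.135 to 0.220) in 6-MP and 0.250 (0.212 to 0.294) with the combined treatment. The combined interval overlapped those of vehicle and 6-MP and lay above that of histidine.

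**Figure D2:**
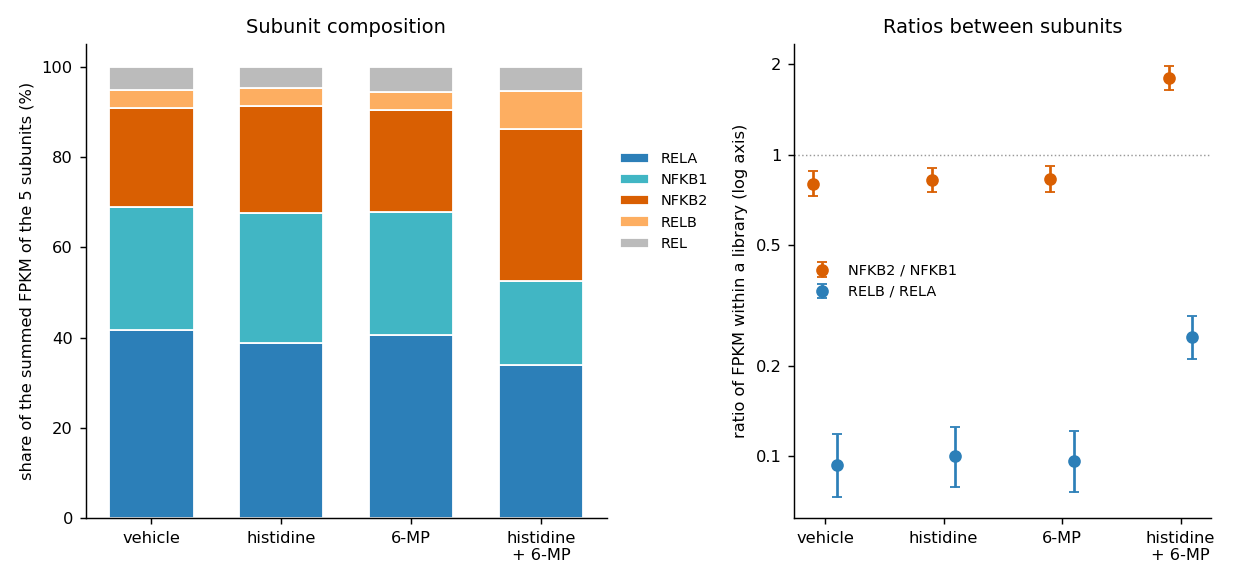
Left, share of each subunit in the summed FPKM of the 5 subunit genes, in percent, for each library; right, FPKM ratios of NFKB2 to NFKB1 and RELB to RELA within each library on a log axis, with 95% counting intervals. With the combined treatment NFKB2 makes up 33.6% and RELB 8.39% of the sum, and both ratios lie above those of the other 3 libraries.

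Among the inhibitors, NFKBIA was at 39.0 FPKM in vehicle (1325 reads), 38.2 with histidine (1404 reads), 42.2 with 6-MP (1535 reads) and 28.3 with the combined treatment (866 reads). The combined library was the lowest, and its interval of 26.5 to 30.3 FPKM stayed clear of the others, the lowest of which began at 36.3. IkappaBalpha transcript per library read was 72.5% of vehicle (66.5% to 79.1%), 67.1% of 6-MP (61.7% to 73.0%) and 74.1% of histidine (68.0% to 80.7%). The NFKBIA to RELA ratio of FPKM, which sets the main inhibitor against its main cargo, was 2.11, 2.20, 2.46 and 1.59 in vehicle, histidine, 6-MP and combined treatment, and NFKBIA to NFKB2 was 4.02, 3.59, 4.40 and 1.60.

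TNFAIP3 was at 89.8 FPKM in vehicle (6459 reads), 98.6 with histidine (7671 reads), 92.3 with 6-MP (7113 reads) and 73.5 with the combined treatment (4767 reads). The combined library was lowest with 71.5 to 75.7 FPKM against a lowest bound of 87.6 in the others. The combined library held 81.9% of the vehicle reads (78.9% to 85.1%), 79.7% of the 6-MP reads (76.8% to 82.7%) and 74.6% of the histidine reads (71.9% to 77.4%). These reads rest on a transcript length of 5025 bases, near the annotated one. The FPKM steps also fitted a length of 1675 bases, with 3 times fewer reads, and the interval against vehicle was then 76.7% to 87.4%. An antisense gene, AL357060.1, overlaps 95 exon bases of TNFAIP3 and was at 6.16, 5.99, 6.36 and 7.36 FPKM. NFKBIE did not follow NFKBIA. Its levels were 7.90, 8.28, 7.78 and 8.02 FPKM (267 to 331 reads), all intervals overlapped, and the ratio of combined treatment to vehicle was 1.01 (0.856 to 1.20).

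Both remaining targets were low. TRAF1, an adaptor that binds TNF receptor family tails together with TRAF2, was at 1.58 FPKM in vehicle (101 reads), 1.82 with histidine (126 reads), 1.31 with 6-MP (90 reads) and 2.36 with the combined treatment (136 reads). The combined level was highest, but its interval of 1.98 to 2.79 FPKM overlapped that of histidine, 1.51 to 2.16. The read ratio was 1.49 against vehicle (1.15 to 1.95), 1.80 against 6-MP (1.37 to 2.37) and 1.30 against histidine (1.01 to 1.66). These reads rest on a recovered length of 4476 bases, shorter than the 6449 bases of TRAF1 in GENCODE 29. BIRC3, encoding the ubiquitin ligase cIAP2 that acts with cIAP1 to keep NIK low, was barely counted: 13 reads in vehicle, 29 in histidine, 15 in 6-MP and 42 in the combined library, for 0.121, 0.249, 0.130 and 0.433 FPKM. The combined library was highest here too, 3.59 times vehicle (1.89 to 7.28), with an interval, 0.312 to 0.585 FPKM, that overlapped the histidine interval of 0.167 to 0.358.

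Read as a list, the members past the fold threshold were 0 of 9 for histidine against vehicle, where 1.33% of tested genes were past it, and 0 for 6-MP against vehicle, where 1.18% were. For the combined treatment they were 0 against vehicle (6.53% of tested genes, 5.01% higher and 1.51% lower), 1 against 6-MP (6.02%, 4.82% higher) and 0 against histidine (5.55%). The 3 comparisons share the combined library and are not independent of each other. The median log2 fold change of the 9 members was 0.02 against vehicle, 0.05 against 6-MP and 0.04 against histidine, and the medians over all tested genes were 0.13, 0.13 and 0.11. The median size regardless of sign was 0.28, 0.32 and 0.36 for the members and 0.29, 0.28 and 0.28 for all tested genes.

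A finer count set each read-ratio interval against the median tested gene, whose log2 read ratio in the combined library was 0.16 against vehicle, 0.15 against 6-MP and 0.13 against histidine. Against vehicle, 3 members (NFKB2, RELB and TRAF1) had intervals above the median gene, as did 30.2% of the 12345 tested genes with recovered reads. Another 4 (NFKB1, RELA, NFKBIA and TNFAIP3) lay below it, as did 30.9%. Against 6-MP, NFKB2, RELB and TRAF1 were above (29.6% of genes) and NFKB1, NFKBIA and TNFAIP3 below (31.7%). Against histidine, NFKB2, RELB and REL were above (30.6%) and NFKB1, NFKBIA and TNFAIP3 below (31.3%). NFKB2 and RELB were thus above, and NFKB1, NFKBIA and TNFAIP3 below, in each of the 3 comparisons. Relative to the median gene the log2 read ratios to vehicle were 1.19 for RELB, 0.71 for NFKB2 and 0.42 for TRAF1, 0.17 for REL, -0.13 for NFKBIE and -0.21 for RELA, and -0.44, -0.46 and -0.62 for TNFAIP3, NFKB1 and NFKBIA. RELA and NFKBIE changed sign with such centring: their log2 fold changes against 6-MP were 0.05 and 0.04 as deposited and -0.09 and -0.09 with median-ratio scaling.

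**Figure D3:**
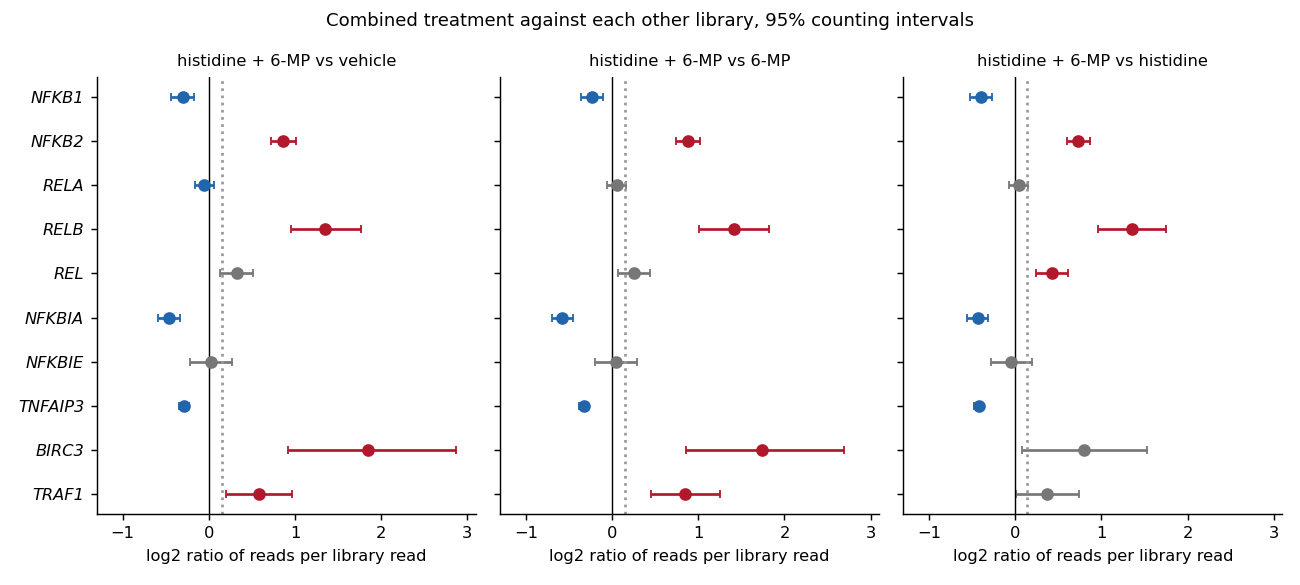
Log2 ratio of reads per library read between the combined treatment and vehicle, 6-MP or histidine for each of the 10 genes, with 95% counting intervals; the solid line marks 0 and the dotted line the median tested gene, and red and blue mark intervals wholly above or below that median. RELB and NFKB2 lie above the median, and NFKB1, NFKBIA and TNFAIP3 below it, in all 3 panels.

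With histidine alone, TNFAIP3 was the only tested member whose interval lay above the median gene (10.6% of genes did), at 1.10 times vehicle (1.06 to 1.14), and RELA the only one below it (11.5%), at 0.939 times (0.872 to 1.01). BIRC3, untested, was at 2.06 times vehicle (1.04 to 4.32). With 6-MP alone, NFKBIA was above the median gene (9.48% of genes), at 1.08 times vehicle (1.00 to 1.16), and RELA again below it (8.59%), at 0.929 times (0.863 to 1.00), both by narrow margins. The single agents left RELB at 0.998 (0.720 to 1.39) and 0.958 times vehicle (0.688 to 1.33), so that a change of RELB within these intervals was not detectable at this depth. NFKB2 was at 1.10 (0.987 to 1.22) and 0.987 times vehicle (0.886 to 1.10).

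The combined level was also set against the sum of the single-agent changes, as combined minus histidine minus 6-MP plus vehicle on the log2(FPKM + 1) scale. This difference was 1.03 for RELB, 0.70 for NFKB2, 0.41 for TRAF1 and 0.26 for REL. It was -0.30 for NFKB1, -0.46 for TNFAIP3 and -0.53 for NFKBIA. RELA and NFKBIE were near 0, at 0.14 and -0.02. Over all tested genes the median was 0.11 and 6.76% were at least 1 in size, so RELB, 1 of 9 members, was in that tail.

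RELB had the widest range of the 10 genes over the 4 libraries, 1.02 in log2(FPKM + 1). The 5 genes with the most similar pattern, by Euclidean distance over the 3 log2 fold changes against vehicle among 9907 tested protein-coding genes outside the lists, were ZDHHC4 (distance 0.0359), ORMDL1 (0.0410), XPC (0.0605), ZNF581 (0.0606) and IGBP1 (0.0639). Their combined-to-vehicle log2 fold changes were 0.97, 1.00, 1.03, 1.00 and 1.04. Each point rests on the same 4 libraries.

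The rest of the pathway was followed in 6 lists of 111 genes, of which 94 had a row and 68 were tested. The lists were chosen with earlier results of these data known, so their shares past the threshold are no independent finding. None of the 68 was past the threshold with either single agent, and with the combined treatment 6 (8.82%) were higher and 1 (1.47%) lower than vehicle, beside 5.01% and 1.51% of all tested genes. Of the 68, 5 genes (CD27, FAS, IL1B, LTA and TNFSF13) averaged under 1 FPKM in the other 3 libraries and counted as tested only through the combined one. With the minimum set on those 3 libraries, a choice made after seeing the data, 4 of 63 were higher and 1 lower, beside 3.94% and 1.74% of all genes so tested. The median log2 fold change was 0.29 for the 68 genes and 0.27 for the 63, against 0.13 over all tested genes. The IKK kinases and their activators had 0 of 10 genes past the threshold and a median of 0.15, and the ubiquitin ligases and adaptors 0 of 11 and 0.05. MAP3K14, which encodes NIK, was at 4.76 FPKM in vehicle and 4.77 with the combined treatment, a read ratio of 0.01 on the log2 scale (-0.21 to 0.22). Among 16 further IkappaB proteins and negative regulators 1 gene was lower and the median was 0.20. That gene was NFKBIB, encoding IkappaBbeta, at 2.61 FPKM in vehicle, 2.95 in histidine, 2.27 in 6-MP and 0.634 in the combined library (87 reads in vehicle, 19 in the last). Its log2 fold change was -1.15 against vehicle. It shares 40 exon bases with SIRT2 on the opposite strand, and whether counting used the strand is not given in the sources used here.

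The 9 tested receptors had a median of 0.56 and 0 past the threshold, with CD27 included, which was tested only through the combined library. The receptors of the non-canonical route named above lay on opposite sides of vehicle. CD40 was at 5.65, 6.48, 5.35 and 8.83 FPKM in vehicle, histidine, 6-MP and combined treatment, for a log2 fold change of 0.56. TNFRSF13C, which encodes BAFF-R, was at 3.56, 3.62, 3.56 and 2.25 FPKM in the same order, with a log2 fold change of -0.49 and a log2 read ratio of -0.66 (-1.01 to -0.32), and was the only one of the 9 receptors below vehicle. The 7 ligands of the tumor necrosis factor family had 3 (42.9%) past the threshold, all higher, beside 5.01% of all tested genes. As this list was chosen with earlier results of these data known, the share is no independent finding. Their median was 0.64, with LTA and TNFSF13 included, which were tested only through the combined library. TNFSF9, the ligand of 4-1BB, went from 2.22 FPKM in vehicle to 14.7 with the combined treatment (log2 fold change 2.28), TNFSF4, the OX40 ligand, from 4.79 to 19.7 (1.84), and CD70, the CD27 ligand, from 22.5 to 58.3 (1.34). LTB, a subunit of the lymphotoxin that engages the LTbeta receptor, was at 11.7 and 18.7 FPKM (0.64). TNF, with 48 reads in vehicle and 36 in the combined library, had a log2 read ratio of -0.26 (-0.93 to 0.39). Of the receptors by which these ligands were named, the level of OX40 is not given here. LTBR (LTbeta receptor) had 0 reads in vehicle and 2 in the combined library. TNFRSF9 (4-1BB) had 0 and 1, and CD27 had 21 and 23.

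The 15 tested further targets also had 3 (20%) past the threshold, all higher, beside 5.01% of all tested genes. Their median was 0.63. Of these 3, IL1B and FAS were among the genes tested only through the combined library, where they are high. The share of 20% thus rests partly on that filter and is not read as a result, and the median includes both genes. CCR7, a lymph node homing receptor, was at 1.67 FPKM in vehicle, 2.24 in histidine, 1.51 in 6-MP and 17.0 in the combined library, for a log2 fold change of 2.75. IL1B, the cytokine interleukin-1beta, was at 0.766, 1.37, 0.607 and 5.98 FPKM (1.98). FAS, a death receptor, was at 0.589, 0.486, 0.362 and 3.81 FPKM (1.60), and ACTA2, with which it shares 380 exon bases on the opposite strand, at 0.211, 0.174, 0.329 and 2.19 FPKM.

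**Figure D4:**
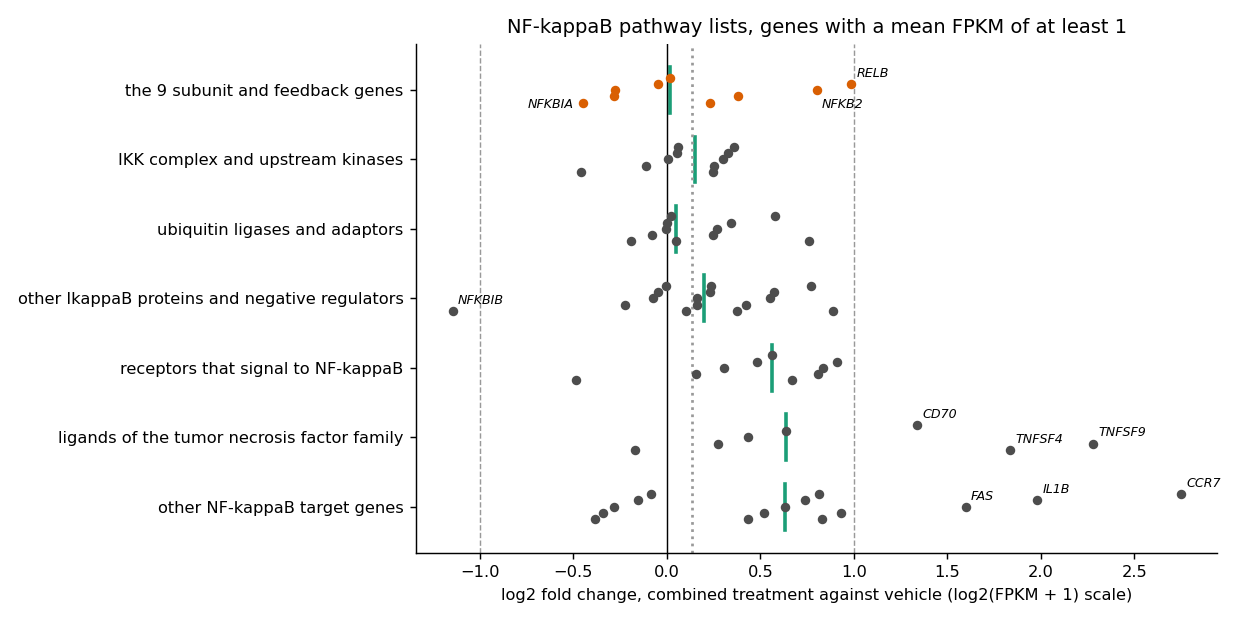
Log2 fold change of combined treatment against vehicle, on the log2(FPKM + 1) scale, for the tested genes of the NF-kappaB lists; each point is a gene, green bars are list medians, dashed lines the fold threshold and the dotted line the median of all tested genes. The 9 tested members (top) lie between -0.45 for NFKBIA and 0.99 for RELB, and the 6 genes past the threshold to the right are ligands and further targets.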

How the data were processed

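RNA-seq of 4 Reh-6-MPR libraries was analysed, 1 per treatment, made with a TruSeq stranded mRNA kit. The authors' processing notes name Trimmomatic, HISAT2, Cufflinks, HTSeq and hg38. The FPKM values were used as deposited by the authors; tool versions, the annotation release and the strand setting are not given in the sources used here. Read totals and counts were recovered from the FPKM steps with GENCODE 29 exon lengths as a start, searching lengths up to 2 times those (27880 genes, whole within 0.001 reads); recovered reads made up 97.5% of the totals. The count model of the study needs replicates, so only its fold threshold of 1 was kept. The recovery and interval code was run on simulated Poisson reads at the recovered lengths, so annotated lengths that differ from these were not tested. Computations ran in Python 3.11.15 with scipy 1.17.1, pandas 2.3.3 and numpy 2.4.6, and plots in matplotlib 3.10.9. All 10 members were named. Of the pathway lists, tested genes past the threshold against vehicle were named, plus CD40, TNF and LTB. MAP3K14, TNFRSF13C, LTBR, TNFRSF9, CD27 and ACTA2 were added after their values were seen. The members and lists were chosen with earlier results of these data known. A further pathway list is not reported here. Alternatives were the pseudocount, filters, scaling, the threshold and protein-coding genes only.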

Additional observations from a re-analysis of the deposited data

Results flagged for a closer look

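TNFAIP3 and NFKBIA had opposite changes for the same agent with and without the other one. The log2 read ratio of TNFAIP3 with added histidine was 0.13 (0.09 to 0.18) from vehicle and -0.33 (-0.38 to -0.27) from 6-MP. That of NFKBIA with added 6-MP was 0.11 (0.01 to 0.22) from vehicle and -0.43 (-0.56 to -0.31) from histidine. The difference was not tested, as each contrast had 1 library per treatment. Of 12345 tested genes, 5.98% had such opposite intervals for histidine and 5.33% for 6-MP.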

How the results depend on the processing

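With a pseudocount of 0.1 and with TPM scaling, 1 member (RELB) was past the threshold for the combined treatment against vehicle and against histidine, in place of 0. The share of all tested genes past it rose alongside, from 6.53% to 11.9% and 17.3% against vehicle and from 5.55% to 10.0% and 15.7% against histidine. With TPM scaling the minimum and pseudocount of 1 were applied to TPM values, so 17949 genes counted as tested in place of 12750. The shares with TPM scaling are therefore of another set of genes. Against 6-MP the count of 1 became 0 with a mean FPKM of at least 5, which leaves RELB out, with median-ratio scaling (RELB at 0.91) and with a threshold of 1.5. No called member changed sign. Each shift of a member value was set against the distance from the midpoint of its counting interval to a bound. Of 50 member values per setting, 50 moved by less than that distance with either TPM scaling or the pseudocount of 0.1. With median-ratio scaling 12 moved by more. The log2 scaling factors divided out there were 0.12 for the combined library and -0.04, -0.03 and -0.02 for vehicle, 6-MP and histidine. No paired analysis was possible because no treatment was sequenced more than once, and leaving out a replicate did not apply. Counting TNFAIP3 at its shortest fitting length, added after seeing the data, left its place relative to the median gene as it was in all 5 comparisons. Depth limits RELB, TRAF1 and BIRC3 most. Differences between cultures were not measured.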

Other observations

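In the comparisons of the combined treatment with 6-MP or with histidine, 3 further pathway genes were past the threshold. They are named here after their values were seen. Of the 68 tested pathway genes, 7 (10.3%) were higher and 1 (1.47%) lower against 6-MP. Against histidine 8 (11.8%) were higher and 1 (1.47%) lower. Of all tested genes, 6.02% and 5.55% were past the threshold in either direction, with 614 and 529 of 12750 higher and 153 and 178 lower. The 68 include the 5 genes tested only through the combined library. Of these, FAS and IL1B are in both counts of higher genes, which thus rest partly on that filter. TLR6, a Toll-like receptor that pairs with TLR2, was at 2.25 FPKM in vehicle, 2.16 in histidine, 1.92 in 6-MP and 5.10 in the combined library, for a log2 fold change of 1.06 against 6-MP. TLR10, a further Toll-like receptor of B cells, was at 3.43, 2.28, 2.75 and 6.03 FPKM, for 1.10 against histidine. ICAM1, an adhesion molecule, was at 1.22, 0.936, 1.04 and 2.90 FPKM, for 1.01 against histidine. Within the kinase list, 2 genes short of the threshold were also picked after their values were seen. TAB1, an activator of TAK1, was lower with the combined treatment, at 11.4 FPKM against 16.0 in vehicle, with a log2 read ratio of -0.49 (-0.64 to -0.35), while TAB3 was higher, at 3.62 against 2.61 FPKM and 0.47 (0.30 to 0.65).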
